A study of Mus musculus with 30 samples.

Results

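Expression of 10 genes of the Notch pathway was examined in CT-26 and Colon 26, both mouse colorectal carcinoma cell lines derived from BALB/c mice. The genes were chosen by name, and each symbol matched 1 of the 53431 gene IDs in the count table. They comprise the 4 receptors Notch1, Notch2, Notch3 and Notch4, the 4 ligands Jag1, Jag2, Dll1 and Dll4, and the 2 target genes Hes1 and Hey1. RNA-seq was performed on poly-A RNA of 30 libraries in 8 groups. For each line there were 3 libraries of cultured cells and 4 libraries of tumors in each of the size classes of 100, 400 and 800 mm3, grown in the flank of female BALB/c mice. The mice carried no transgene or treatment named for these samples. No label assigns an antibody to a tumor, although dosing is described for the study, and all tumors were taken here as not dosed. The age of the mice, and whether the libraries of a group came from separate cultures, are not given in the sources used here, so p-values measure the spread between these libraries, which may be technical in part.

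Notch receptors are single-pass membrane proteins that are activated by ligands on a neighboring cell. Binding of a Jagged or Delta-like ligand exposes the receptor to an ADAM protease and then to gamma-secretase, which releases the intracellular domain. This domain enters the nucleus, joins the DNA-binding protein RBPJ and Mastermind-like coactivators, and switches on genes such as Hes1 and Hey1, both of which encode transcriptional repressors. In tumors the pathway is known for its part in blood vessel sprouting, where Dll4 and Notch4 are expressed by endothelial cells and Notch3 by the pericytes and smooth muscle cells that surround them.

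In the GENCODE annotation of GRCm38, Jag1 lies at chr2:137081456-137116644 (minus strand), Dll4 at chr2:119325784-119335962 (plus strand), Notch1 at chr2:26457903-26516663 (minus strand) and Notch4 at chr17:34564268-34588503 (plus strand). The counts are given per gene, so its exons and untranslated regions are not told apart. Whether reads in introns were counted is not given in the sources used here. Exons of Notch1, Notch3, Dll1 and Dll4 overlap those of another annotated gene on the other strand, and exons of Notch2 overlap Gm42820 on the same strand. Whether the counting used strand is not given in the sources used here, and reads from such overlaps cannot be assigned with certainty. Exons of Notch4, Jag1, Jag2, Hes1 and Hey1 overlap none.

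The promoter sequences of Jag1, Dll4 and Notch4, to which the comparisons return, are shown from RefSeq on GRCm38.p6, 5′ to 3′ on the strand of the gene and ending before the annotated start of the gene. Jag1 was the ligand called between the models in culture and, with all libraries in the fit, at every tumor size. Dll4 and Notch4 followed the endothelial markers of the tumors, mostly in CT-26. Capitals mark CACGCG or its reverse complement CGCGTG, the letters of a site bound by Hes and Hey repressors. These letters were chosen after the sequences were seen.
Jag1, chr2:137116645-137116770: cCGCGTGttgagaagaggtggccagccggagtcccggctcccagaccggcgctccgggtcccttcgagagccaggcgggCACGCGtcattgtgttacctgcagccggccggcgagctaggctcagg
Dll4, chr2:119325534-119325783: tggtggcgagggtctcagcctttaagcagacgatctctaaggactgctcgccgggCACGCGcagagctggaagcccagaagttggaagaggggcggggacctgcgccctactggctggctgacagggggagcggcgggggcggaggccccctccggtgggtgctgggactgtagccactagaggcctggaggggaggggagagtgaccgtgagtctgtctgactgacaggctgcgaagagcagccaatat
Notch4, chr17:34564045-34564267: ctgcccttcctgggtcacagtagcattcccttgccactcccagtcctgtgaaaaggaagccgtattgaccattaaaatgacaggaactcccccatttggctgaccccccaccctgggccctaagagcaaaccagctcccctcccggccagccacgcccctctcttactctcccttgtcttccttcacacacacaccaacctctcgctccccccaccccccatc
Of the 10 genes, 8 had a RefSeq promoter in the table used, in 9 windows. In the 250 bases before the RefSeq start, CACGCG on either strand was found for 4 of these genes (Jag1, Dll4, Notch2 and Dll1), and in 7.62% of all 32851 promoter windows of the same length. The former counts genes and the latter windows. With letters chosen after the sequences were seen, they are no test of enrichment. The letters TGGGAA or TTCCCA, the core of the RBPJ site, were found in none of the members' windows and in 21.6% of all windows. A match of letters is a description of the sequence, and its absence says only that the letters are not in this window.

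The libraries held 21384730 to 39722586 estimated counts each, with the Colon 26 cultures (36042940 to 39722586) deeper than the CT-26 cultures (21384730 to 27856380). Endothelial RNA was near 0 in the cultures, where the 10 endothelial markers summed to 0.451 to 0.821 CPM (counts scaled to library size) in CT-26 cultures, with Cldn5 at 0, and to 1.07 to 1.36 CPM in Colon 26 cultures, with Cldn5 and Emcn at 0. The 8 markers of simple and colon epithelium were mixed. Epcam was at 0 counts in all cultures and Cdh1 and Vil1 at 4 counts or fewer, whereas Krt18 (15.2 to 16.2 CPM) and Krt20 (23.8 to 25.9 CPM) were present in CT-26 cultures, and Krt20 (5.50 to 5.93 CPM) and Cdx2 (5.98 to 6.47 CPM) in Colon 26 cultures. Their sums were 40.3 to 42.9 CPM in CT-26 cultures and 114 to 252 CPM in CT-26 tumors, against 11.9 to 12.6 and 11.9 to 43.8 CPM in Colon 26. Tumors carried RNA of the host, with summed endothelial markers from 84.8 to 282 CPM, leukocyte markers from 192 to 930.1 CPM and fibroblast markers from 1022 to 3439 CPM. Fibroblast markers were also present in culture, at 83.3 to 91.6 CPM in CT-26 and 311 to 333 CPM in Colon 26. Within the CT-26 tumors of 100 mm3 the endothelial sums were 84.8, 111, 282 and 229. Replicate 1 had the lowest sum of all 24 tumors. The CT-26 tumors of 800 mm3 were at 194 to 232 CPM, a range that holds replicate 4 and lies above replicates 1 and 2. Replicates 3 and 4 stood apart from replicates 1 and 2. They came from the largest tumors of the group (136 and 146 mm3 against 103 and 106 mm3). Counts of members called in comparisons that use this group are given with and without them. This alternative was chosen after the data were seen, by the endothelial sums. Genes that follow endothelial RNA have lower means in replicates 1 and 2 alone by this choice, so values without the pair are no separate test of them. Skeletal muscle markers reached 2392 CPM in replicate 1 of the Colon 26 tumors of 400 mm3 and 1248 CPM in replicate 2 of those of 100 mm3, and keratinocyte markers 75.8 CPM in replicate 4 of the CT-26 tumors of 800 mm3. In bulk samples, more or fewer cells of a type and more or less RNA per cell cannot be told apart.

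Levels of different genes were compared on the FPKM scale, which divides by gene length. Notch2 was the most abundant receptor in every group, with 13.04 ± 0.325 FPKM (SD, n = 3) in CT-26 cultures and 19.6 ± 0.458 in Colon 26 cultures, or 79.3% and 74.1% of the summed FPKM of the 4 receptors. Notch1 followed with 2.82 ± 0.114 and 6.002 ± 0.275 FPKM, then Notch4 with 0.573 ± 0.0671 and 0.839 ± 0.0670 FPKM. Notch3 was nearly silent in both cultures, at 0.0159 ± 0.00721 and 0.0162 ± 0.000872 FPKM. The same order held for the group means in tumors, and neighboring receptors did not overlap in any group but the CT-26 tumors of 100 mm3, where Notch1 and Notch4 did.

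The ligands changed rank between the lines and between culture and tumor. Jag2 made up 58.0% of the ligand FPKM in CT-26 cultures and Jag1 made up 71.1% in Colon 26 cultures, although the sums of the 4 ligands were low, at 0.538 ± 0.102 and 1.29 ± 0.110 FPKM (SD, n = 3). In tumors of 100 mm3 the sums were 5.16 ± 2.53 and 6.84 ± 0.555 FPKM (SD, n = 4). Dll4 then had the highest mean in both models, with 59.7% of ligand FPKM in CT-26 and 42.3% in Colon 26, and it stayed highest at 400 and 800 mm3. In Colon 26 tumors of 100 and 400 mm3 the libraries of Dll4 overlapped those of Jag1, the next ligand, whereas at 800 mm3 they did not. In all CT-26 tumor groups Dll4 lay above the next ligand without overlap, and Jag1 and Jag2 overlapped each other. Dll1 was the lowest ligand in every tumor group, at 0.132 to 0.230 FPKM on average. Of the targets, Hes1 lay above Hey1 in every group, with 3.62 ± 0.133 against 0.0766 ± 0.0875 FPKM in CT-26 cultures.

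**Figure D1:**
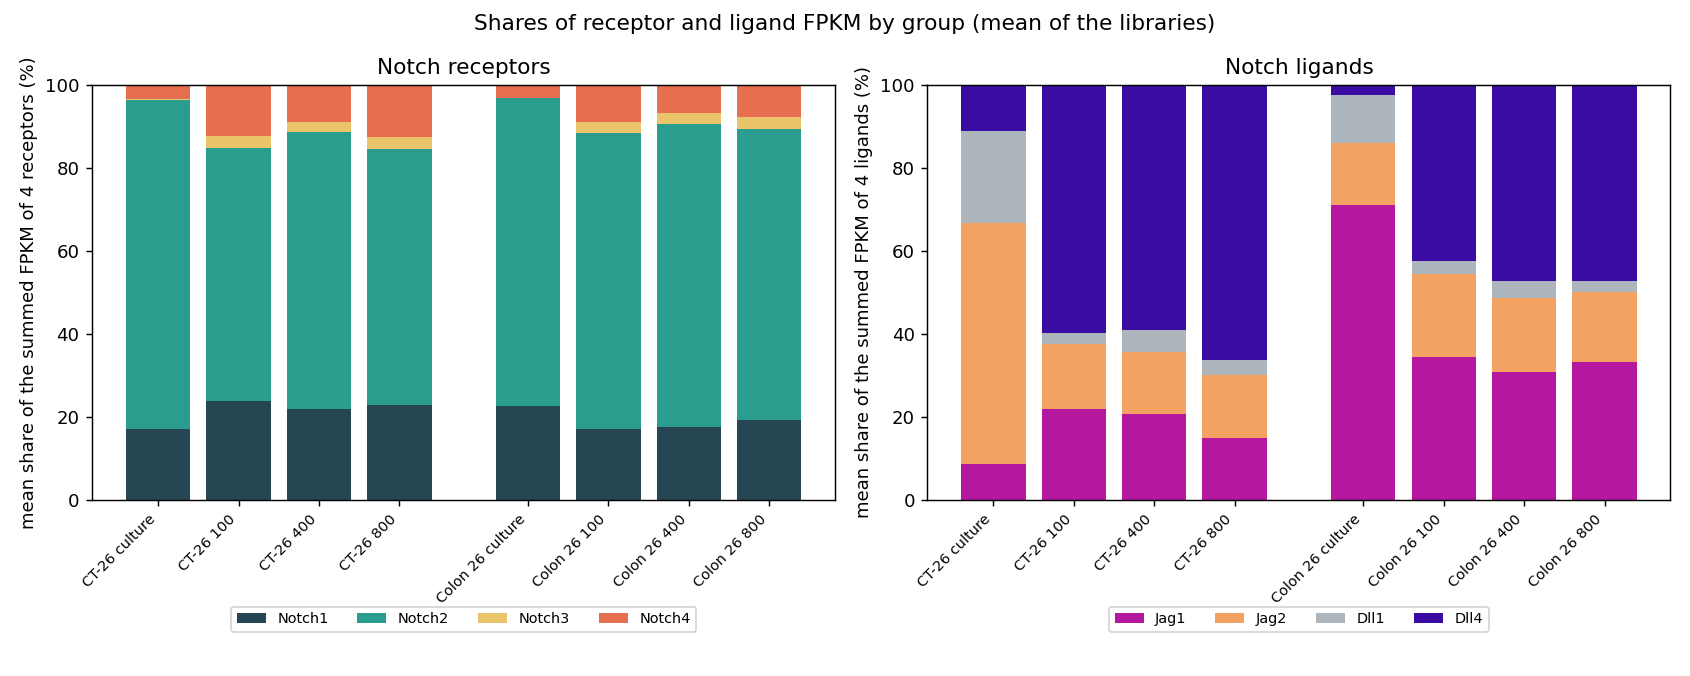
Mean share (%) of each receptor (left) and ligand (right) in the summed FPKM of its 4 genes, by group. Notch2 takes 60.9% to 79.3% of receptor FPKM throughout, while the leading ligand passes from Jag2 (CT-26 culture) or Jag1 (Colon 26 culture) to Dll4 in the tumors.

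**Figure D2:**
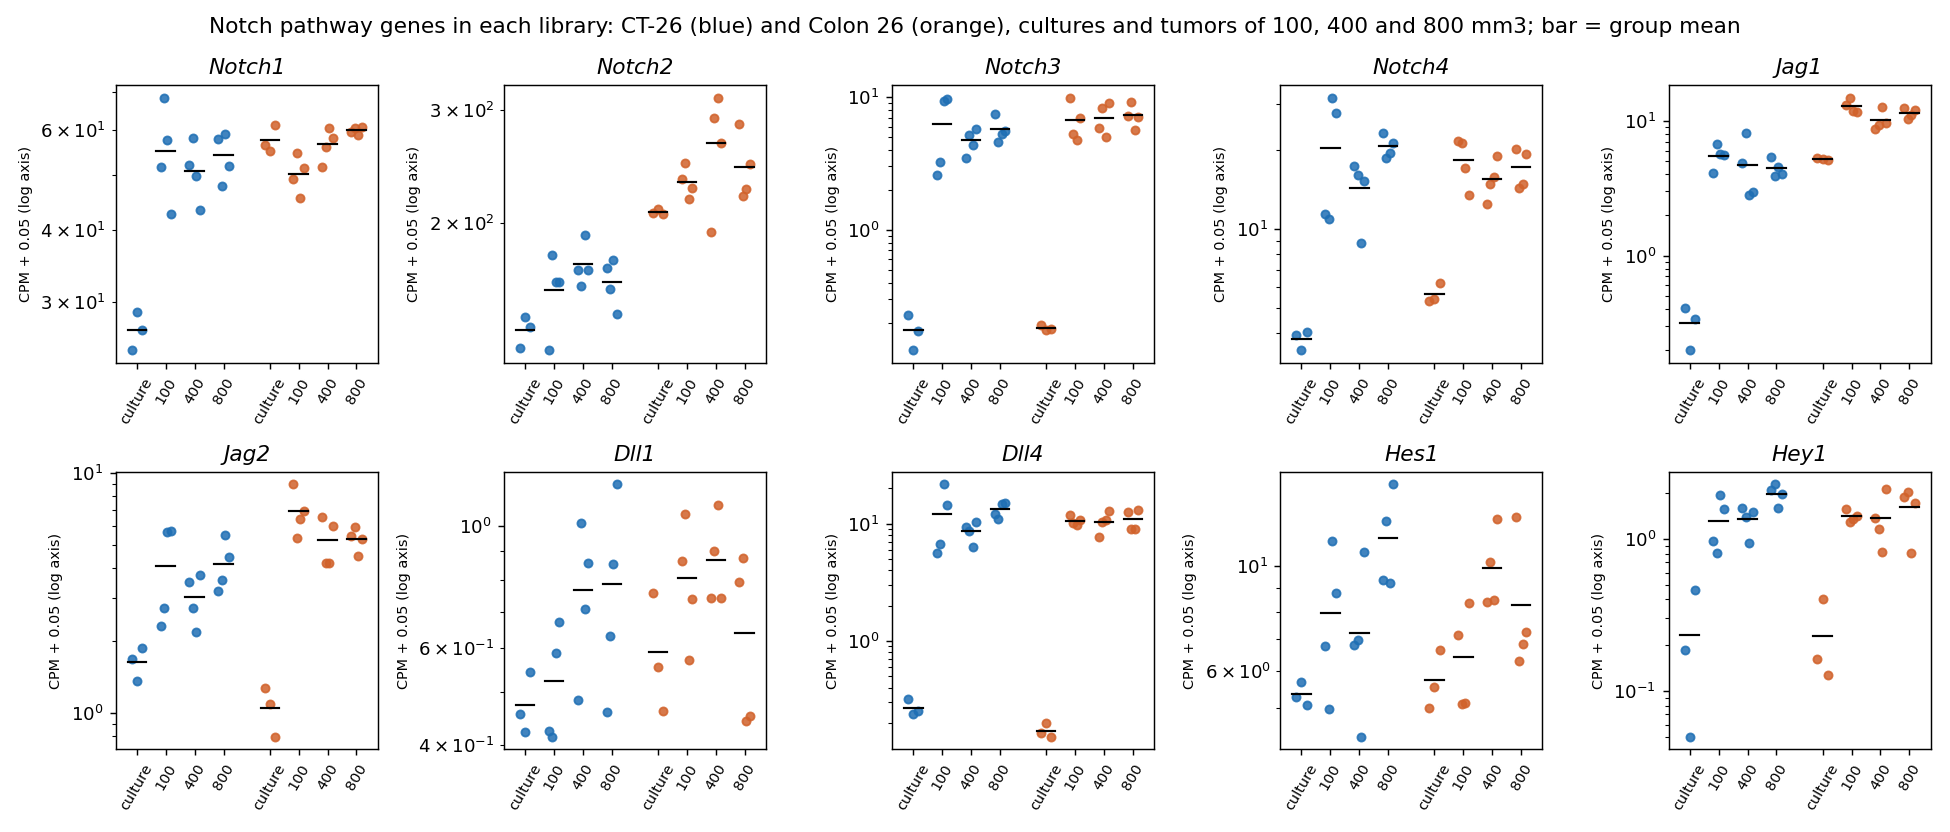
CPM of each gene in each library, on a log axis after adding 0.05, for CT-26 (blue) and Colon 26 (orange) in culture and in tumors of 100, 400 and 800 mm3, with a bar at the group mean. Jag1 and Notch2 are higher in Colon 26 at every size, and Notch3, Dll4 and Hey1 leave their low culture level in every tumor.

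The cultures were compared first, since they show the cancer cells without the host. Jag1 and Notch1 were higher in Colon 26 and passed both thresholds of the study, which are an adjusted p up to 0.1 and a log2 fold change of 1 or more in size, and no member was lower past both. These 2 genes were among 7 members with enough counts to be tested, beside 22.9% of all genes tested that were called. Jag1 encodes a ligand of the Notch receptors. It stood at 0.360, 0.149 and 0.288 CPM in the 3 CT-26 libraries, which were 4 to 8 counts each, and at 5.28, 5.19 and 5.06 CPM in the 3 Colon 26 libraries. The groups lay far apart, with a ratio of means of 19.5 and a log2 fold change of 4.26 (SE 0.23, adjusted p = 4.12e-11). Notch1 encodes a receptor expressed in many tissues. It was measured at 24.6, 28.8 and 26.8 CPM in CT-26 and at 56.4, 55.1 and 61.2 CPM in Colon 26, a log2 fold change of 1.07 (SE 0.05, adjusted p = 4.92e-12).

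Other members had smaller differences in culture, where 82.6% of all genes passed the adjusted p alone and 5 of the 7 members did. Notch2 averaged 136 ± 7.496 CPM in the CT-26 libraries and 208 ± 1.84 in those of Colon 26 (SD, n = 3) and had a log2 fold change of 0.57 (SE 0.03, adjusted p = 4.37e-11), under the minimum fold. Notch4 likewise had 0.54 (SE 0.12, adjusted p = 0.000578). Both were higher in each Colon 26 library than in any CT-26 library. Jag2, the other Jagged ligand, pointed the other way with -0.70 (SE 0.24, adjusted p = 0.0156), at 1.62, 1.31 and 1.81 CPM in CT-26 against 1.21, 1.03 and 0.745 CPM in Colon 26. Hes1, the target most often read as a sign of Notch activity, had a log2 fold change of 0.07 with a 95% interval of -0.16 to 0.29, and Dll1 one of 0.31 (-0.35 to 0.96). The intervals are 1.96 standard errors to each side, a normal approximation. With so few libraries, all intervals given here as 95% are narrower than the edgeR test implies. For Hes1 between the models at 800 mm3, the interval was -0.96 to -0.03 with an unadjusted p of 0.0647 by edgeR. Notch3, Dll4 and Hey1 had 0 to 14 counts in a culture library and were not tested.

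In tumors, Jag1 was higher in Colon 26 at each of the 3 sizes and was, with all libraries in the fit, the only one of the 10 members to pass both thresholds at any of them. Among all genes, 13.2% were called at 100 mm3, 14.3% at 400 mm3 and 14.1% at 800 mm3. At 100 mm3 Jag1 was at 4.07, 6.63, 5.65 and 5.50 CPM in CT-26 and at 13.00, 14.8, 11.9 and 11.6 CPM in Colon 26. At 400 mm3 the values were 4.85, 8.06, 2.75 and 2.94 against 8.71, 9.27, 12.6 and 9.64 CPM, and at 800 mm3 5.35, 3.84, 4.47 and 3.95 against 12.4, 10.2, 10.97 and 11.9 CPM. The groups did not overlap at any size. The log2 fold changes were 1.23 (SE 0.15, adjusted p = 0.000211) at 100 mm3, 1.116 (SE 0.33, adjusted p = 0.0227) at 400 mm3 and 1.36 (SE 0.14, adjusted p = 2.31e-05) at 800 mm3. The call at 400 mm3 was lost without any 1 of 3 libraries, with log2 fold changes of 0.93 and 0.95 without replicate 3 or 4 of CT-26 and 0.99 without replicate 3 of Colon 26. Fibroblast markers were also higher in the Colon 26 tumors of 100 mm3 (2679 to 3439 CPM) than in those of CT-26 (1304 to 2284 CPM). At 400 and 800 mm3 the fibroblast sums overlapped between the models (1799 to 2741 against 1022 to 2321 CPM, and 1516 to 3368 against 1038 to 1628 CPM). Pericyte and smooth muscle markers were higher in Colon 26 without overlap at 400 mm3 (215 to 419 against 115 to 184 CPM) and 800 mm3 (209 to 270.1 against 166 to 186 CPM), and overlapped at 100 mm3 (231 to 328 against 116 to 276 CPM). Both sums were already higher in Colon 26 in culture, without host cells. Fibroblast markers were at 311 to 333 against 83.3 to 91.6 CPM there, and pericyte and smooth muscle markers at 154 to 167 against 33.3 to 34.9 CPM. The part of these markers in the difference of Jag1 was not tested.

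Notch2 was higher in Colon 26 by similar amounts in culture and in tumors, and the interaction of model and tissue was -0.02 (-0.26 to 0.23). It was at 127, 178, 163 and 162 CPM in the CT-26 tumors of 100 mm3 and at 234, 248, 218 and 227 CPM in those of Colon 26. The log2 fold changes were 0.55 (SE 0.10, adjusted p = 0.00146), 0.63 (SE 0.13, adjusted p = 0.00464) and 0.58 (SE 0.09, adjusted p = 0.000392) at 100, 400 and 800 mm3. The groups did not overlap at any size, yet each value was under the minimum fold. With the adjusted p alone as the rule, 56.5%, 52.2% and 59.4% of all genes passed at the 3 sizes. Jag2 passed that rule at 100 mm3 with 0.75 (SE 0.32, adjusted p = 0.0834) and at 400 mm3 with 0.80 (SE 0.24, adjusted p = 0.0235), and its value at 800 mm3 was 0.33 (SE 0.19, adjusted p = 0.159). Notch3 passed it at 400 mm3 (0.58, SE 0.23, adjusted p = 0.0732), Dll1 at 100 mm3 (0.68, SE 0.29, adjusted p = 0.0796) and Notch4 at 800 mm3 (-0.28, SE 0.13, adjusted p = 0.0848, lower in Colon 26). The pericyte and smooth muscle markers just given were higher in Colon 26 at 400 mm3 too. They were also higher without overlap at 800 mm3, where Notch3 did not pass (0.34, SE 0.20, adjusted p = 0.175). In culture they were higher as well, with Notch3 at 0.132 CPM in Colon 26 and 0.126 CPM in CT-26. Their part in the values of Notch3 was not tested.

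Notch1, called in culture, was called at no tumor size, with log2 fold changes of -0.13 (-0.39 to 0.12), 0.16 (-0.02 to 0.33) and 0.13 (-0.01 to 0.28) at the 3 sizes, with the 95% interval in parentheses. For Dll4, the main ligand of sprouting vessels, they were -0.21 (-0.97 to 0.55), 0.27 (-0.11 to 0.65) and -0.29 (-0.61 to 0.02). Hes1 had -0.32, 0.47 and -0.49, and Hey1 0.10, 0.02 and -0.32. No test of Dll4, Hes1 or Hey1 between the models reached the adjusted p of 0.1 with all libraries in the fit. The comparison at 100 mm3 rested in part on the endothelial-rich CT-26 tumors. Without these 2 libraries, 4 members passed both thresholds in place of 1. Jag1 (1.26) was joined by Jag2 (1.47), Notch3 (1.21) and Dll1 (1.04). Dll4 turned from -0.21 to 0.78 (adjusted p = 0.00292) and Notch4 from -0.16 to 0.72 (adjusted p = 0.0224), both under the minimum fold. The pair was picked by its endothelial sums, which Dll4 and Notch4 followed in CT-26, so these values depend on that choice. Of all genes 16.4% were then called. Hey1 went from 0.10 to 0.70 (adjusted p = 0.0411), under the minimum fold.

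**Figure D3:**
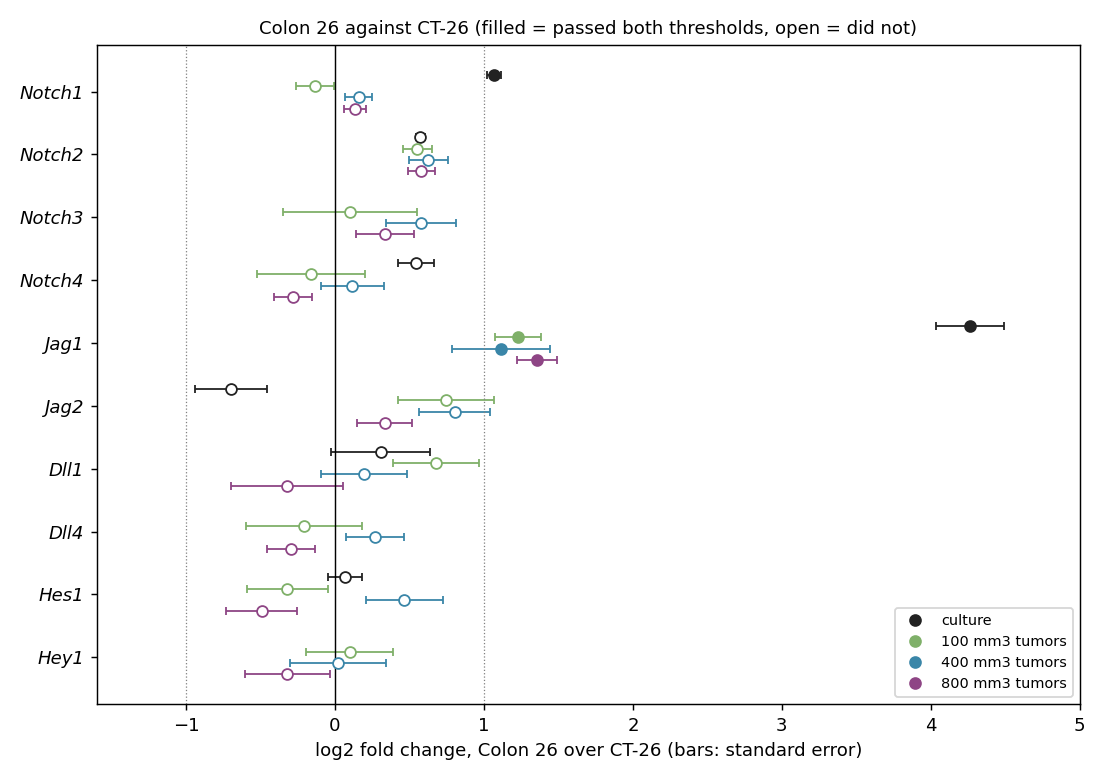
Log2 fold change of each gene, Colon 26 over CT-26, in culture and at 3 tumor sizes, with bars of 1 standard error and filled points where both thresholds passed. Jag1 is filled in all comparisons, at 4.26 in culture and between 1.116 and 1.36 in tumors. Notch3, Dll4 and Hey1 have no point for culture, where they were not tested.

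Small tumors were then compared with the cultured cells of the same line. In CT-26, 7 of 10 members rose in tumors of 100 mm3 and none fell, beside 22.2% of all genes called higher. In Colon 26, 6 of 10 rose and none fell, beside 20.8%. The median log2 fold change of the members was 1.89 in CT-26 and 1.59 in Colon 26, against 0.06 and 0.05 over all genes tested. Dll4, Notch3, Hey1, Notch4, Jag1 and Jag2 rose in both models, and Notch1 passed both thresholds in CT-26. These comparisons set cells of 1 line against a tissue with vessels, stroma and leukocytes, so no value in them can be told apart from cell make-up. Endothelial, leukocyte and fibroblast markers were higher in these tumors than in culture in both models.

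Dll4 had the largest log2 fold change of the members in both models. It rose from 0.270, 0.187 and 0.206 CPM in CT-26 cultures to 5.603, 6.66, 21.7 and 14.5 CPM in tumors, a log2 fold change of 5.75 (SE 0.66, adjusted p = 9.66e-05). In Colon 26 it rose from 0.113, 0.151 and 0.103 to 11.8, 10.0, 9.77 and 10.6 CPM, by 6.46 (SE 0.17, adjusted p = 5.29e-09). The culture values rest on 4 to 6 counts a library. Notch3, the receptor of vascular smooth muscle, rose from 0.180, 0.0747 and 0.123 to 2.53, 3.21, 9.26 and 9.70 CPM in CT-26, by 5.58 (SE 0.73, adjusted p = 0.000203). In Colon 26 it rose from 0.141, 0.126 and 0.128 to 9.86, 5.22, 4.73 and 6.87 CPM, by 5.70 (SE 0.36, adjusted p = 9.88e-07). As with Dll4, every tumor lay far above every culture, and the cultures held 2 to 5 counts of Notch3. Pericyte and smooth muscle markers moved the same way, from 33.3 to 34.9 CPM in CT-26 cultures to 116 to 276 CPM in tumors, and from 154 to 167 CPM in Colon 26 cultures to 231 to 328 CPM in tumors. In both lines Rgs5, Kcnj8, Abcc9, Higd1b and Myh11 were at 3 counts or fewer in culture. Their part in the rise of Notch3 was not tested.

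Notch4, a receptor largely of endothelium, had a measurable level in the cultured cells and rose from there. In CT-26 it went from 3.87, 3.40 and 3.99 CPM to 11.4, 10.8, 31.8 and 27.7 CPM, by 2.44 (SE 0.43, adjusted p = 0.00116). The endothelial-rich replicates 3 and 4 held the high values. In Colon 26 it went from 5.25, 5.37 and 6.14 to 21.7, 21.2, 17.1 and 13.5 CPM, by 1.80 (SE 0.16, adjusted p = 1.02e-05). Hey1, the vascular target gene, rose by 2.78 (SE 0.75, adjusted p = 0.0102) in CT-26 and 2.95 (SE 0.42, adjusted p = 0.000172) in Colon 26. It was at 0.135, 0 and 0.411 CPM in CT-26 cultures (0 to 10 counts a library) and 0.113, 0.353 and 0.0771 CPM in Colon 26 cultures (3 to 14 counts). Its levels stayed low, at 0.913, 0.762, 1.88 and 1.51 CPM in the CT-26 tumors and 1.53, 1.24, 1.30 and 1.37 CPM in those of Colon 26, but every tumor lay above every culture. Hes1 rose in neither model past both thresholds, with 0.57 (SE 0.26, adjusted p = 0.0800) in CT-26 and 0.24 (SE 0.19, adjusted p = 0.280) in Colon 26, and its tumor values of 6.72, 4.94, 11.3 and 8.73 CPM overlapped the CT-26 culture values of 5.23, 5.64 and 5.01 CPM.

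Jag1 rose in both models from unequal starting levels, by 4.35 (SE 0.33, adjusted p = 1.07e-05) in CT-26 and by 1.39 (SE 0.10, adjusted p = 2.70e-06) in Colon 26. The mean ratio of tumor to culture was 20.5 in CT-26 and 2.48 in Colon 26. Jag2 rose from 1.62, 1.31 and 1.81 to 2.24, 2.68, 5.65 and 5.67 CPM in CT-26, by 1.35 (SE 0.38, adjusted p = 0.0128), and from 1.21, 1.03 and 0.745 to 8.92, 5.30, 6.37 and 6.87 CPM in Colon 26, by 2.86 (SE 0.23, adjusted p = 4.23e-06). Every tumor lay above every culture in both models. Notch1 rose in CT-26, from the culture values above to 51.6, 68.3, 57.5 and 42.8 CPM, by 1.04 (SE 0.15, adjusted p = 0.000391), while in Colon 26 the tumors were at 49.2, 54.7, 45.6 and 51.5 CPM with a log2 fold change of -0.11 (95% interval -0.25 to 0.02). Notch2 differed little, with 0.20 (SE 0.11, adjusted p = 0.135) in CT-26 and 0.23 (SE 0.05, adjusted p = 0.00141) in Colon 26, and Dll1, a ligand of low level throughout, had 0.15 (SE 0.31, adjusted p = 0.679) and 0.59 (SE 0.30, adjusted p = 0.106).

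The calls of Notch1 and Jag2 in CT-26 rested on single libraries or on the endothelial-rich pair. Notch1 fell under the minimum fold without replicate 2 of the tumors (0.90) or replicate 1 of the cultures (0.99). Jag2 lost its call without both endothelial-rich tumors (0.63), and the log2 fold changes of Dll4, Notch3 and Notch4 were then 4.76, 4.48 and 1.55, all still called. That of Hey1 was 2.18 and was also called, so that 6 members rose in place of 7, beside 21.2% of all genes.

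**Figure D4:**
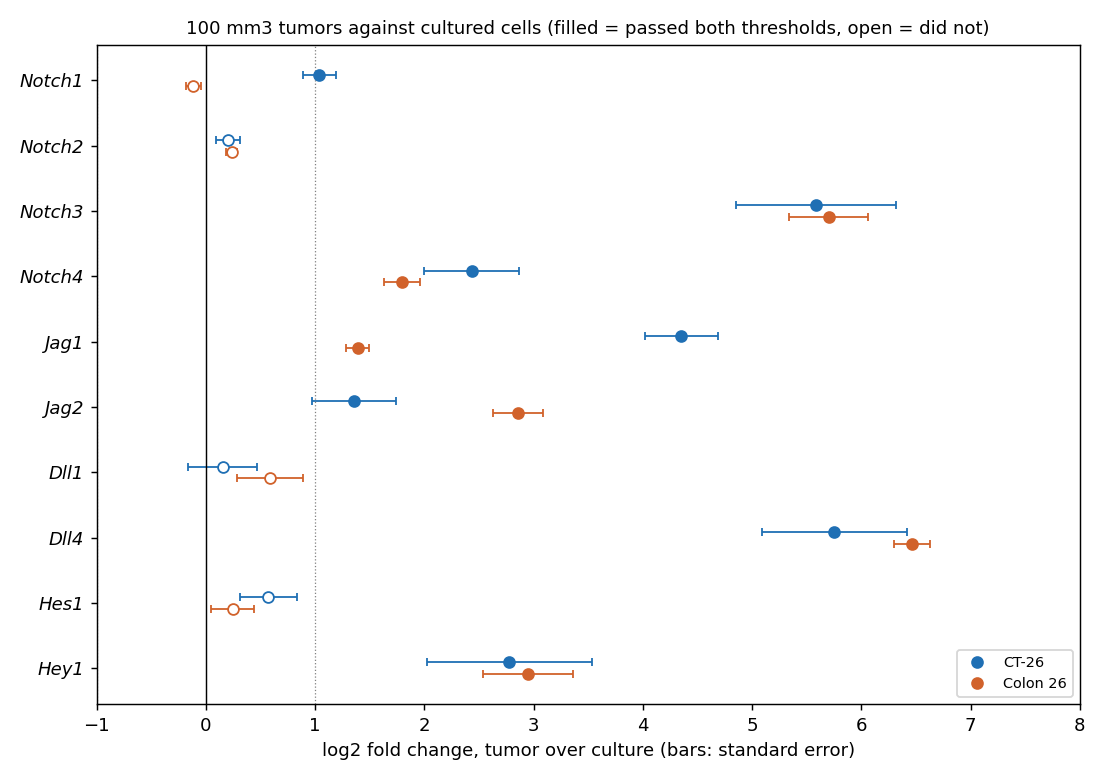
Log2 fold change of each gene, tumors of 100 mm3 over cultured cells, in CT-26 (blue) and Colon 26 (orange), with bars of 1 standard error and filled points where both thresholds passed. Dll4 and Notch3 lie furthest right in both models, and Notch1, Jag1 and Jag2 show the widest gaps between the models relative to their bars.

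Whether the tumor-culture difference differed between the models was tested as an interaction, taken as Colon 26 minus CT-26. It passed both thresholds for 3 of 10 members, beside 17.6% of all genes. The change of Jag1 was smaller in Colon 26, by -3.02 (SE 0.31, adjusted p = 4.08e-06) on the log2 scale. That of Notch1 was also smaller in Colon 26, by -1.20 (SE 0.18, adjusted p = 8.82e-05). That of Jag2 was larger in Colon 26, by 1.45 (SE 0.47, adjusted p = 0.0215). In means, Jag1 went from 0.266 ± 0.107 to 5.46 ± 1.05 CPM in CT-26 and from 5.18 ± 0.110 to 12.8 ± 1.47 CPM in Colon 26 (SD, n = 3 cultures and 4 tumors). The gain in CPM was thus larger in Colon 26, and the smaller change of Jag1 there holds for the ratio only. In CT-26 that ratio starts from 4 to 8 counts a culture library. For Dll4 the interaction was 0.65 with a 95% interval of -1.08 to 2.38. Without both endothelial-rich CT-26 tumors it was 1.62 and was called beside the 3 named, with 17.9% of all genes called. Those tumors were picked by their endothelial sums, which Dll4 followed in CT-26, so this call depends on that choice. For Notch3 and Hey1 the intervals were wide, -2.11 to 2.22 and -1.76 to 1.997, and the values without those tumors were 1.15 and 0.71, not called. All the comparisons at 100 mm3 share their tumor or culture libraries and are not independent of each other.

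The members differed in how closely they followed endothelial RNA over the 24 tumors, whose summed endothelial markers spanned 3.32-fold from lowest to highest. Dll4 spanned 3.87-fold in CPM. Set per 100 CPM of endothelial markers, it lay between 5.04 and 8.25 CPM in every tumor, a span of 1.64-fold. Notch4 likewise spanned 3.62-fold in CPM and 1.65-fold per endothelial RNA (8.17 to 13.5). The narrowing came mostly from the CT-26 tumors. Within CT-26, Dll4 spanned 3.87-fold in CPM and 1.53-fold per endothelial RNA, and Notch4 3.62-fold and 1.65-fold, whereas within Colon 26 the spans were 1.72-fold and 1.53-fold for Dll4 and 1.75-fold and 1.52-fold for Notch4. The medians of the ratio were 6.28 in CT-26 and 6.88 in Colon 26 tumors for Dll4, and 9.90 and 10.5 for Notch4. Notch3 ranged from 2.26 to 5.88 and Hey1 from 0.520 to 1.19 on the same scale, spans of 2.60-fold and 2.29-fold against 3.90-fold and 2.97-fold in CPM. Within Colon 26, Notch3 did not narrow, with 2.08-fold in CPM and 2.09-fold per endothelial RNA. Over all tumors, Hes1 went from 3.46-fold in CPM to 2.64-fold and Jag2 from 4.19-fold to 3.62-fold. Jag1 did not keep a ratio like that of Dll4, with 1.58 to 5.96 in CT-26 and 5.19 to 9.08 in Colon 26 tumors. For Notch2 the ratio spanned 3.68-fold, more than its span of 2.46-fold in CPM.

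**Figure D5:**
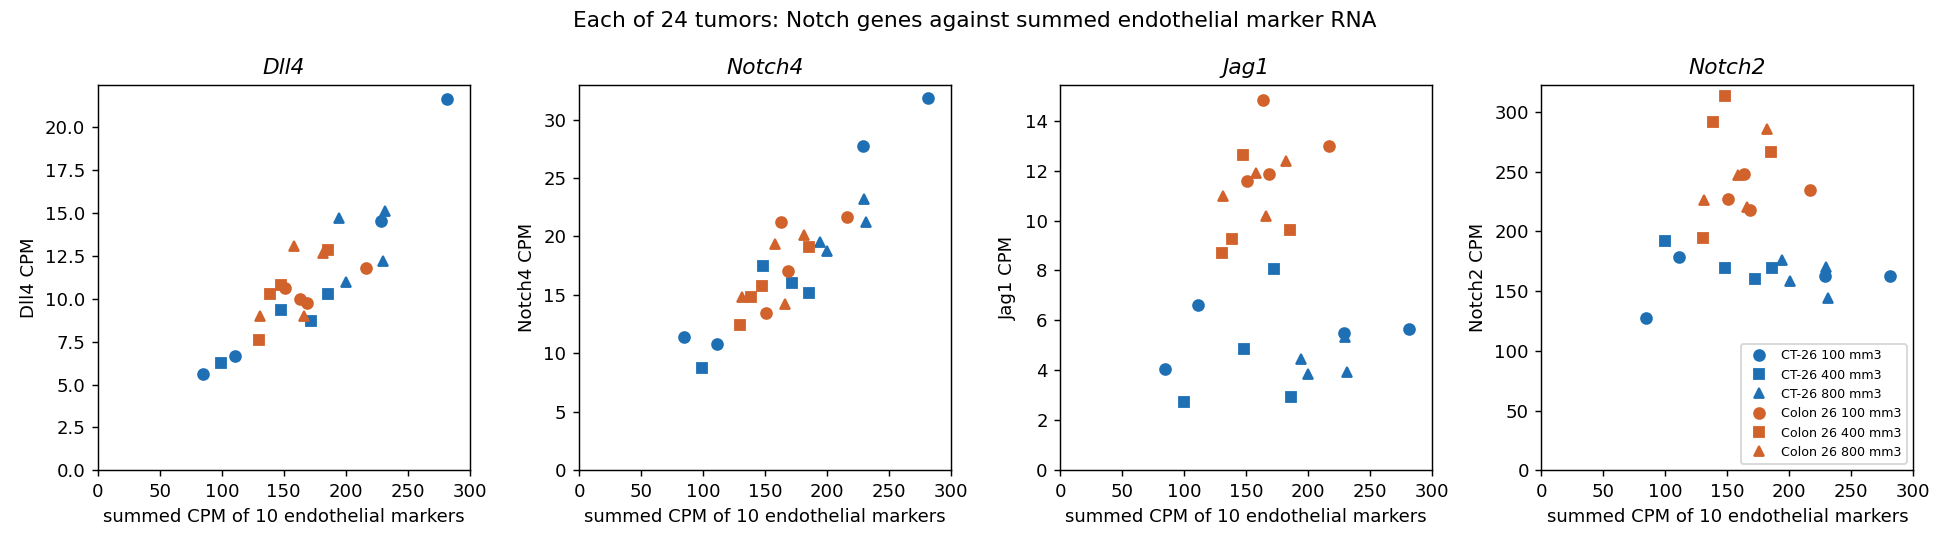
CPM of Dll4, Notch4, Jag1 and Notch2 against the summed CPM of 10 endothelial markers in each of the 24 tumors, CT-26 in blue and Colon 26 in orange, with circles, squares and triangles for 100, 400 and 800 mm3. Dll4 and Notch4 climb with the endothelial sum in CT-26, with the Colon 26 tumors in the same band over a narrower range, whereas Jag1 and Notch2 lie higher in Colon 26 at like sums.

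No member was called between tumor sizes within a model, with or without the endothelial-rich tumors. Between 100 and 400 mm3, 0.0% of all genes were called in CT-26 and 0.0131% in Colon 26, and between 100 and 800 mm3, 0.0% and 1.33%. By edgeR, members with an unadjusted p under 0.05 numbered 0 and 0 in CT-26 and 2 and 2 in Colon 26 at 400 and 800 mm3, and DESeq2 called 0 members in each of the 4 comparisons (1.15% and 0.264% of all genes in CT-26, 0.252% and 1.78% in Colon 26), with 0, 1, 2 and 2 members at an unadjusted p under 0.05. The nearest to a call was Notch1 in Colon 26, at 49.2, 54.7, 45.6 and 51.5 CPM at 100 mm3 and 59.5, 60.5, 58.7 and 60.7 CPM at 800 mm3, with a log2 fold change of 0.24 (SE 0.06, adjusted p = 0.0744). It passed the adjusted p alone, as did 6.67% of all genes. These groups did not overlap, but the difference was small. Hes1 in Colon 26 had 0.61 (SE 0.20, adjusted p = 0.303) at 400 mm3, and Jag1 -0.37 (SE 0.13, adjusted p = 0.335). In CT-26, Hes1 was at 9.29, 12.4, 9.17 and 14.9 CPM at 800 mm3, with 0.53 (SE 0.26, adjusted p = 0.499) over 100 mm3, and Hey1 had 0.61 (SE 0.30, adjusted p = 0.501). The 95% intervals of Dll4 were -0.62 to 0.88 in CT-26 and -0.24 to 0.31 in Colon 26 between 100 and 800 mm3. The CT-26 values rested on the endothelial-rich pair. Without it, 6 members had an unadjusted p under 0.05 by edgeR between 100 and 800 mm3 in place of 0, among them Hey1 (1.204, adjusted p = 0.196), Dll4 (1.105, adjusted p = 0.118) and Notch4 (0.89, adjusted p = 0.113), and 0.125% of all genes were called. Between 100 and 400 mm3 1 member did, Notch3 (0.70, adjusted p = 0.387). The difference in growth between the models was called for no member (0.0308% of all genes), by edgeR at an unadjusted p under 0.05 for 0 members and by DESeq2 for 0 members (0.718% of all genes). Its largest value was that of Dll1 (-1.01, SE 0.49, adjusted p = 0.418). Without the endothelial-rich pair, 2 members were called, Dll4 (-1.09, SE 0.23, adjusted p = 0.0665) and Notch4 (-1.02, SE 0.24, adjusted p = 0.0896), both with a lower value in Colon 26 than in CT-26, beside 0.633% of all genes. The pair was picked by its endothelial sums, which Dll4 and Notch4 followed in CT-26, so these 2 calls depend on that choice.

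Another 49 genes of the pathway were examined from a list of processing enzymes, cofactors, modifiers and further targets. In culture 6 of 39 tested were called higher in Colon 26 and 0 called lower, or 15.4% beside the 22.9% of all genes. The largest values were those of Neurl3, a ubiquitin ligase (0.108 CPM in CT-26, at most 3 counts a library, and 0.609 CPM in Colon 26), Dlk2, a Delta-like protein (1.78, SE 0.19, adjusted p = 3.05e-07), and Psen2, a catalytic subunit of gamma-secretase (1.28, SE 0.07, adjusted p = 5.69e-11). In tumors the shares of the list called were 4.76%, 7.14% and 4.76% at 100, 400 and 800 mm3, beside 13.2%, 14.3% and 14.1% of all genes. At 100 mm3, 0 of 42 were called higher in Colon 26 and 2 called lower, which were Hes7 (-1.15, SE 0.25, adjusted p = 0.00479) and Dlk2 (-1.03, SE 0.35, adjusted p = 0.0370). At 400 mm3, 3 were called higher and 0 called lower. The 3 were the target gene Heyl (1.30, SE 0.48, adjusted p = 0.0556) and the glycosyltransferases Rfng (1.11, SE 0.12, adjusted p = 0.000120) and Poglut1 (1.11, SE 0.08, adjusted p = 1.81e-05). At 800 mm3, Psen2 was called higher (1.05, SE 0.10, adjusted p = 1.22e-05) and Dlk2 called lower (-1.46, SE 0.27, adjusted p = 0.00120). Rfng had 0.61 at 100 mm3 and 0.81 at 800 mm3, and Poglut1 0.81 and 0.97. Psen2 had 0.89 at 100 mm3 and 0.93 at 400 mm3. Each of these values passed the adjusted p alone but was under the minimum fold, whereas Heyl passed it at 400 mm3 only. By that rule, 15, 15 and 17 of the 42 genes had higher values in Colon 26 at 100, 400 and 800 mm3. Lower values were those of 10, 6 and 10 genes. The medians over the list were 0.19 in culture and 0.06, 0.09 and 0.12 in the tumors, against 0.01, -0.002, 0.03 and -0.006 over all genes.

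From culture to tumor, 13 of 42 tested genes of this list rose in CT-26 and 1 fell, and in Colon 26, 8 rose and 2 fell. The shares that rose were 31.0% and 19.0%, beside 22.2% and 20.8% of all genes. The medians were 0.19 and 0.28, against 0.06 and 0.05 over all genes. They were the same with the 4 and 3 genes near 0 in culture set to their bounds. A bound that stays above the median cannot move it, so this is no check of the medians. In CT-26 the largest values were those of Aph1c, Neurl3 and Mfng. Aph1c, a gamma-secretase subunit, was at 0 counts in each culture and at 2.27 ± 0.917 CPM (SD, n = 4) in tumors, at least 18.4-fold higher by a floor of 3 counts a library. Neurl3 went from 0.108 to 20.2 CPM, and Mfng, a Fringe glycosyltransferase that modifies the receptors, from 0.0425 to 5.47 CPM, with at most 3 and 2 counts in a culture library. In Colon 26, Mfng (0.00856 to 5.21 CPM), Heyl (0.00856 to 1.49 CPM) and Aph1c (0.0274 to 3.20 CPM) had the largest values, again from at most 3 counts a culture library. Leukocyte, endothelial and fibroblast markers were higher in the same tumors, and their part was not tested. Rbpj, the DNA-binding partner of Notch, had -0.06 (SE 0.06, adjusted p = 0.416) in CT-26 and -0.41 (SE 0.04, adjusted p = 1.16e-05) in Colon 26, and Nrarp, a feedback inhibitor of Notch, rose in CT-26 by 1.25 (SE 0.14, adjusted p = 7.42e-05) and had 0.82 (SE 0.11, adjusted p = 0.000146) in Colon 26, where it was under the minimum fold. These values of Rbpj and Nrarp were chosen after they were seen. For 5 of 43 genes of the list the tumor-culture difference differed between the models, or 11.6% beside 17.6% of all genes, with 1 larger and 4 smaller in Colon 26, led by Dlk2 (-2.79, SE 0.47, adjusted p = 0.000256), Neurl3 (-2.43, SE 0.83, adjusted p = 0.0285) and Neurl1b (-1.65, SE 0.17, adjusted p = 4.50e-06). Without the endothelial-rich pair of CT-26 tumors, 13 of 41 genes of the list rose from culture to tumor and 1 fell, beside 21.2% of all genes called higher. At 100 mm3, 1 of 42 was then called higher in Colon 26 and 2 called lower, beside 16.4% of all genes called. In the interaction 5 of 42 differed, beside 17.9% of all genes. With tumor growth, 1 gene of the list was called in 4 comparisons, Dlk2 in Colon 26 at 800 mm3 (-1.30, SE 0.34, adjusted p = 0.0747). This was 2.38% of the list tested there, beside 1.33% of all genes.

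The genes most like a member were sought by the Pearson correlation of log2 CPM over the 24 tumors after subtracting each group's mean, among 13496 genes with a mean of at least 1 CPM. These correlations describe libraries that share their cell composition, and no test was made. The closest to Dll4 were Adgrf5 (r = 0.963), Nid2 (0.955) and Sema3f (0.940). The closest to Notch4 were Rapgef4 (0.916), Robo4 (0.914) and Sema3f (0.909), and Adgrf5 and Robo4 are genes known from endothelium. Jag2 was followed by Arhgap31 (0.891), Add2 (0.886) and Afap1l1 (0.881). Notch2 had other neighbors, Tnrc18 (0.894), Spen (0.888) and Kmt2c (0.885), which encode nuclear proteins. Spen is also on the list of the other 49 pathway genes, among the inhibitors and turnover genes.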

How the data were processed

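Poly-A RNA of 30 libraries (3 cultures and 12 tumors of each line) was sequenced. Samples were grouped by the model, tissue and size class in their labels, which carry no replicate numbers, so that replicate numbers here are only names. Reads were aligned and assigned to Ensembl genes in Array Studio by the authors. They deposited estimated counts per gene and library, not normalized, of which 22.6% of the non-zero values are not whole (tolerance 1e-06), and FPKM, normalized by library total and gene length. The aligner, genome build and handling of strand are not given in the sources used here. DESeq2 1.24.0 is named in the submitters' processing notes. No column of single libraries was left unused (0 columns). Symbols were given for 52207 of 53431 IDs.

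Estimated counts were rounded, although the planned design spoke of raw counts. Each comparison was fitted with the quasi-likelihood test of edgeR 4.0.16 (with limma 3.58.1 and R 4.3.3) on its own libraries, with TMM scaling, the filter of filterByExpr and Benjamini-Hochberg adjustment over all genes tested. A gene was called with an adjusted p up to 0.1 and a log2 fold change of 1 or more in size, which are the thresholds of the study, whose tool, DESeq2, was an alternative (version 1.42.0). Standard errors came from the F statistics. CPM are scaled by TMM over all 30 libraries. Further alternatives were another scaling, no filter, all libraries in one fit, other thresholds and leaving out each library. Tables were made with Python 3.11.15. The fits were tested on simulated data. All 42 pairs of replicates differed by more than counting noise. Counting error is small for members above 10 CPM and limits Notch3, Dll4, Hey1, Dll1 and, in CT-26, Jag1 in culture.

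The 10 members and all gene and marker lists were chosen with earlier results of these data known. By the rule for names, all members are named, of the other pathway genes the 3 called ones with the largest absolute log2 fold change in a comparison, and the 3 genes most like a member for the 4 members with the highest correlations.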

Additional observations from a re-analysis of the deposited data

Results flagged for a closer look

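Among 60 sets of 4 tumor libraries of a member and group, 1 had a library far from the others by Dixon's test, where chance gives about 1 in 20. In Colon 26 tumors of 800 mm3, Hes1 was at 12.6 CPM in replicate 1 and at 6.26 to 7.20 CPM in the others (Q = 0.851, above the 95% critical value for 4 values).

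The difference between tumors of 100 mm3 and culture differed between the models for 3 members in the test of the interaction (edgeR, Colon 26 minus CT-26). The log2 values were -3.02 for Jag1 (adjusted p = 4.08e-06), -1.20 for Notch1 (adjusted p = 8.82e-05) and 1.45 for Jag2 (adjusted p = 0.0215). Without both endothelial-rich CT-26 tumors they were -3.01, -1.33 and 2.17, and all remained called.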

How the results depend on the processing

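Of the 21 called values of single members, 18 kept their direction and call under every alternative, with 279 of 285 recomputed values on the same side of the thresholds and none reversed. The exceptions were Jag1 at 400 mm3 (0.93 to 1.52 over single libraries left out), Notch1 in CT-26 tumors against culture (0.90 to 1.13) and Jag2 there without both endothelial-rich tumors (0.63), an alternative chosen after the data were seen. The number of members called between the models ran from 0 to 1 at 400 mm3 with single libraries left out. With the adjusted p as the sole rule it was 5 in culture, 4, 4 and 3 in tumors of 100, 400 and 800 mm3, and 1 from 100 to 800 mm3 in Colon 26. Without both endothelial-rich tumors it was 4 at 100 mm3, and 2 in place of 0 in the interaction of model and size. Those tumors were picked by their endothelial sums, so the changes depend on that choice, and the cause was not tested. The growth of CT-26 tumors gave 0 called genes by edgeR at 400 and 800 mm3, 162 and 39 by DESeq2, and 379 and 92 with all 30 libraries in one fit, and no member was among those of DESeq2. That of Colon 26 gave 2 and 205 genes by edgeR, 34 and 309 by DESeq2 and 25 and 100 in one fit. The interaction of model and size gave 5, 114 and 39. DESeq2, which tested other numbers of genes, moved the median log2 fold change over all genes from 0.01 to -0.10 in culture and from 0.05 to 0.19 from culture to tumor in Colon 26. No paired analysis was possible because the labels carry no replicate numbers.

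Values that changed sign were all among those not called, and the cause was not tested. Without both endothelial-rich tumors these were Notch4 (0.72), Dll4 (0.78) and Hes1 (0.13) between the models at 100 mm3, Dll1 (-0.21) in CT-26 tumors against culture, and Notch2 (0.021), Notch4 (0.18) and Hes1 (0.064) in the interaction of model and tissue. In CT-26 they were also Notch3 (0.70), Notch4 (0.37), Jag2 (0.28), Dll4 (0.49) and Hes1 (0.29) from 100 to 400 mm3 and Notch3 (0.97) from 100 to 800 mm3, and in the interaction of model and size Notch2 (-0.033) and Notch3 (-0.88). Scaling by library size alone gave -0.00594 for Hey1 from 100 to 400 mm3 in CT-26, and -0.012 for Notch4 and -0.00862 for Jag2 from 100 to 800 mm3. For Notch2 the interaction of model and tissue was 0.033 by DESeq2, 0.042 with RLE scaling, 0.00830 by library size alone and 0.040 in one fit. With single libraries left out, ranges of log2 fold changes crossed 0 as follows. Between the models in culture they ran for Hes1 from -0.046 to 0.16. Between the models at 100 mm3 they ran for Notch3 from -0.14 to 0.40, Notch4 from -0.38 to 0.16, Dll4 from -0.42 to 0.26 and Hey1 from -0.090 to 0.37. Between the models at 400 mm3 they ran for Notch4 from -0.059 to 0.22 and Hey1 from -0.28 to 0.22. From culture to tumor in CT-26 they ran for Dll1 from -0.013 to 0.26. From 100 to 400 mm3 in CT-26 they ran for Hes1 from -0.42 to 0.068 and Hey1 from -0.16 to 0.29. From 100 to 800 mm3 in CT-26 they ran for Notch1 from -0.13 to 0.091, Notch2 from -0.042 to 0.10, Notch3 from -0.38 to 0.18, Notch4 from -0.20 to 0.31, Jag2 from -0.17 to 0.22 and Dll4 from -0.11 to 0.57. From 100 to 400 mm3 in Colon 26 they ran for Notch3 from -0.11 to 0.27, Dll1 from -0.060 to 0.26, Dll4 from -0.17 to 0.060 and Hey1 from -0.37 to 0.12. From 100 to 800 mm3 in Colon 26 they ran for Notch2 from -0.00962 to 0.11, Notch3 from -0.041 to 0.35 and Dll4 from -0.067 to 0.11. In the interaction of model and tissue they ran for Notch2 from -0.084 to 0.053, Notch3 from -0.29 to 0.35 and Hey1 from -1.36 to 1.04. In the interaction of model and size they ran for Notch2 from -0.049 to 0.10, Notch3 from -0.076 to 0.48, Notch4 from -0.44 to 0.078 and Dll4 from -0.54 to 0.14.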
